A study of Mus musculus with 12 samples.

Results

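Of the 12 libraries, 4 were haemoglobin-poor, meaning that haemoglobin genes took under 30% of the reads, and the other 8 were haemoglobin-rich. The share of each library was the sum over the 11 rows whose symbol begins with Hba- or Hbb- divided by the sum of its column. The poor libraries were 6h replicate 4 (26.2%), Day1 replicate 2 (16.1%), Day1 replicate 4 (29.6%) and Day7 replicate 1 (17.6%). Among the rich libraries the share was 53.2% at the lowest, 63.9% at the median and 70.3% at the highest. The threshold lay in a wide gap, with Day1 replicate 4 (29.6%) just inside it and Day1 replicate 3 (53.2%) just outside it. The libraries were chosen by these shares, which are therefore a description and support nothing further.

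All libraries came from wild type mice after burn/tenotomy, a burn combined with cutting of a tendon, and were taken at 6h, Day1 or Day7, with 4 libraries at each time. The blood was enriched on the microfluidic iChip, and the labels call the result cMPCs (circulating mesenchymal progenitor cells) and blood cells. No label used here gives strain, sex or age, and uninjured blood was not analysed here. Whether replicates came from different animals is not stated, and p-values describe only the scatter of these libraries, part of which may be technical. At 6h and at Day7 there was 1 poor library against 3 rich ones, and at Day1 there were 2 of each.

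Red cells carry haemoglobin as their main cargo, and immature red cells, the reticulocytes, still hold much haemoglobin mRNA. In total RNA of blood these few transcripts can take up most of a library, so that fewer reads fall on the RNA of all other cells. Platelets carry RNA of their megakaryocyte precursors, and transcripts of liver or connective tissue in blood can come from a few cells or fragments of them.

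Y-linked reads were present in 3 of 4 poor and 2 of 8 rich libraries, so the classes are unevenly mixed for this too. The times were uneven as well. Such reads were in 6h replicates 3 and 4 and Day1 replicates 2, 3 and 4, and in no Day7 library. The 2 libraries with the fewest genes, 6h replicate 1 and Day7 replicate 3, were both rich. Red cell genes that the rule did not use followed the classes. The erythroid list, 45 genes of haem synthesis, the red cell membrane and erythroid regulation, took 1.84% to 4.65% of the reads outside haemoglobin in the poor libraries. In the rich libraries it took 8.87% at the lowest and 48.6% at the highest, with no overlap. The adult genes Hba-a1, Hba-a2, Hbb-b1 and Hbb-b2 gave at least 99.98% of the haemoglobin reads in every library. Within the alpha pair and within the beta pair the copies are alike and their reads may be split, so no single one is described.

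The classes differed in what was left to read. The poor libraries held 9677379 to 12379041 reads and the rich ones 5098395 to 9096780, so the 4 poor libraries were also the 4 deepest. Outside haemoglobin, 6h replicate 4 had 9136578 reads, Day1 replicate 2 had 9404066, Day1 replicate 4 had 6816153 and Day7 replicate 1 had 8659065. The rich libraries had 1595467 at the lowest, 2416728 at the median and 3903096 at the highest, with no overlap. A gene seen by 3 reads therefore stood at 0.319 to 0.440 RPM (reads scaled to 1000000 outside haemoglobin, the unit of all levels below) in a poor library and at 0.769 to 1.88 in a rich one. These floors cover counting error only.

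**Figure D1:**
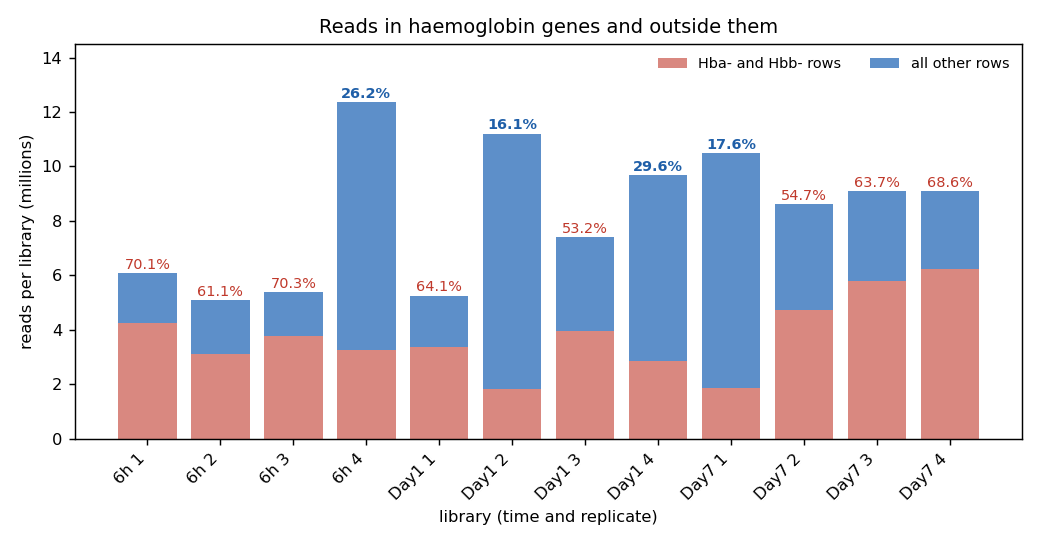
Reads per library (vertical axis, in units of 1000000) in haemoglobin rows and in all other rows, with the haemoglobin share above each bar; blue shares mark the 4 poor libraries and red shares the 8 rich ones. The 4 poor libraries hold 6816153 to 9404066 reads outside haemoglobin and the 8 rich ones 1595467 to 3903096.

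Neither at full depth nor at equal reads was a difference in the number of genes detected shown beyond the spread. With all reads, 13525 ± 2239 genes outside haemoglobin (SD, n = 4) had at least 1 read in poor libraries and 10970 ± 2446 (SD, n = 8) in rich ones. Taken within times the difference was 1730 genes, in a two-sided exact permutation test within times p = 0.198. At the depth of the shallowest library, 1595467 reads, the expected numbers were 12057 ± 2039 (SD, n = 4) and 10486 ± 2560 (SD, n = 8). The difference within times was then 724 genes (exact permutation p = 0.583, the smallest possible p being 0.0104). Without Day7 replicate 1 it was -136 genes (exact permutation p = 0.917). Without the 2 libraries with the fewest genes it was -7.04 (exact permutation p = 0.981).

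**Figure D2:**
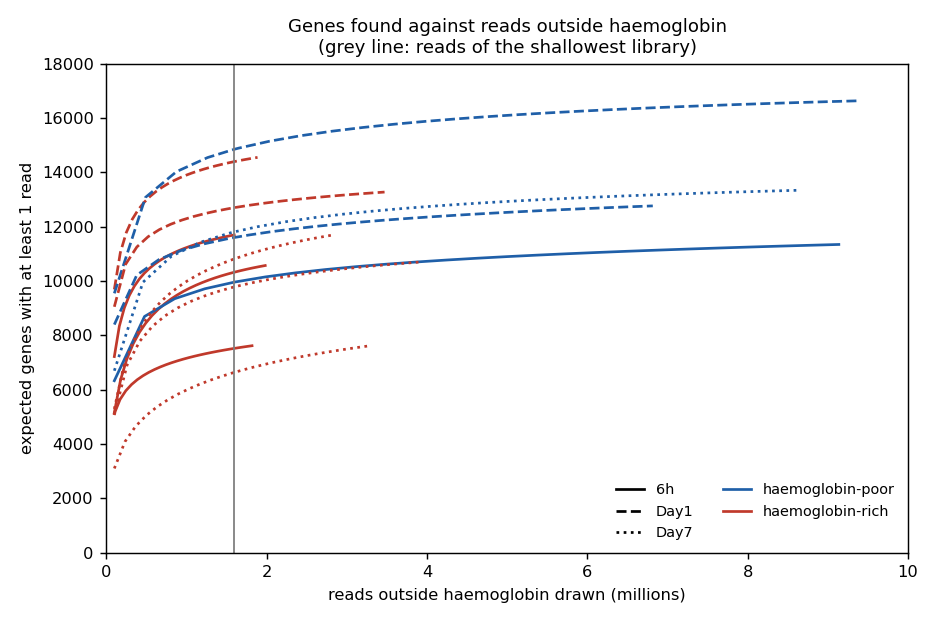
Expected number of genes with at least 1 read (vertical axis) against the reads outside haemoglobin drawn from a library (horizontal axis, in units of 1000000), with 1 line per library, blue for poor and red for rich, and the line style giving the time. At the grey line, 1595467 reads, poor libraries lie between 9961 and 14851 genes and rich ones between 6639 and 14397, so the classes overlap.

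Of 26 genes of the mesenchymal progenitor and fibroblast list, 17, 26, 17 and 19 had at least 3 reads in 6h replicate 4, Day1 replicates 2 and 4 and Day7 replicate 1. In the rich libraries it was 4 to 21 of 26, and the classes overlapped. At the common depth the expected number with at least 1 read was 16.2 to 25.8 of 26 in poor libraries and 7.998 to 22.0 in rich ones. Of 13 cartilage genes, at least 3 reads were found for 3, 6, 11 and 3 in the poor libraries and for 1 to 4 in the rich ones. At the common depth the expected numbers were 3.00, 5.24, 10.9 and 2.98 of 13 in those poor libraries and 1.00 to 4.81 in rich ones, so these overlapped too.

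Gene levels were then compared in RPM outside haemoglobin, with the haemoglobin rows left out, so that the share that sorted the libraries does not enter the value. The comparison is the log2(value + 1) of poor minus rich libraries with time as a term, in limma with Benjamini-Hochberg adjustment at 0.05 over 12598 genes tested. Because a measured value sorted the libraries, a p-value says that a gene goes with the haemoglobin share, not that a treatment changed it. The poor libraries were higher for 6 genes (0.0476% of those tested) and lower for 48 (0.381%), together 54 (0.429%). The median difference over all genes was 0.35 (quartiles -0.30 and 1.01), and 64.03% of genes had a positive difference. At an unadjusted p under 0.05 there were 1051 genes.

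These calls were fragile. No gene passed in edgeR on the recovered reads (708 at an unadjusted p under 0.05), in limma with Y-linked reads as a further term (752), or in limma on the values as deposited (989). None passed without Day1 replicate 1 or without Day7 replicate 1, 11 passed without 6h replicate 4 and 15 without Day1 replicate 2. DESeq2 called 26 higher (0.206%) and 161 lower (1.28%), and limma with array weights, which give unlike libraries less weight, called 30 higher (0.238%) and 110 lower (0.873%). In each of the 3 times, 52 of the 54 genes had the poor libraries entirely on one side of the rich ones. Over all genes tested, 2.14% lay above and 1.52% below in this way.

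Red cell genes outside haemoglobin made up 18 of the 48 lower genes. They come from the same cells as haemoglobin, so their levels follow from how the libraries were chosen and are given with no p-value of their own. Of 45 list members, all of them tested, 41 had a negative difference and the median was -2.62, beside 0.35 over all genes. Alas2, the first enzyme of haem synthesis in red cells, stood at 10868 RPM in 6h replicate 4, at 2860 and 10750.3 in Day1 replicates 2 and 4 and at 3639 in Day7 replicate 1. In rich libraries it was 19119 at the lowest, 43035 at the median and 147737 at the highest, so the classes did not overlap. Bpgm, which makes the 2,3-bisphosphoglycerate that loosens oxygen from haemoglobin, stood at 4283, 1299, 2491 and 1019 in the same poor libraries. The rich libraries ranged from 8062 through a median of 17538 to 74051, again without overlap. Mkrn1, a ubiquitin ligase, stood at 7396, 2035, 3560 and 4661 against 8698, 21705 and 48010, a narrower gap. The log2 differences were -2.88 for Alas2, -3.30 for Bpgm and -2.15 for Mkrn1. Among called members the differences were widest for Trim10 (-5.11), Epb4.2, the membrane protein 4.2 (-4.65), and Spna1, the red cell alpha spectrin (-3.93). Epb4.2 had 0 reads in 3 poor libraries and 3.46 RPM in Day7 replicate 1. In rich libraries it ran from 0 in 6h replicate 1 to 190 RPM, so its classes overlapped at 6h. Trim10 overlapped at Day1, with 89.2 in poor replicate 4 and 88.7 in rich replicate 3. In bulk RNA, fewer cells of a type and less RNA per cell cannot be told apart.

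GATA1 is the main transcription factor of red cells and binds sites with the core AGATAA, so stretches of promoter of the red cell genes among the lower genes are shown. RefSeq promoters (build GRCm38.p6) were matched for 30 of the 48 lower genes, and the 250 bases before the start were searched on both strands for AGATAA. The motif was present for 3 of the 9 matched members of the erythroid list and for 0 of the 21 matched lower genes outside it. It was present for 0 of the 5 matched higher genes, and for 7.65% of the 8780 tested genes with a promoter. The 3 stretches run 5′ to 3′ on the plus strand, with the match in capitals (TTATCT is AGATAA on the other strand). They cover chrX:150547167-150547416 for Alas2, chr17:36869324-36869573 for Trim10 and chr7:78913985-78914234 for Isg20, an exonuclease of RNA.
Alas2: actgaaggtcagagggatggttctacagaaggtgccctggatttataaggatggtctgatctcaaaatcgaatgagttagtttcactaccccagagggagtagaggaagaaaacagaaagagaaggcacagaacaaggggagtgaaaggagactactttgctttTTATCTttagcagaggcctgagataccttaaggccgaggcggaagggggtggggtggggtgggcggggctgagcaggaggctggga
Trim10: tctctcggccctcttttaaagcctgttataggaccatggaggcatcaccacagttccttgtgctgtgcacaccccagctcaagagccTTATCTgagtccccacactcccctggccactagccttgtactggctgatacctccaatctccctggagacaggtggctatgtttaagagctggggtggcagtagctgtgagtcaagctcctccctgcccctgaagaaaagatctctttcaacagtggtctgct
Isg20: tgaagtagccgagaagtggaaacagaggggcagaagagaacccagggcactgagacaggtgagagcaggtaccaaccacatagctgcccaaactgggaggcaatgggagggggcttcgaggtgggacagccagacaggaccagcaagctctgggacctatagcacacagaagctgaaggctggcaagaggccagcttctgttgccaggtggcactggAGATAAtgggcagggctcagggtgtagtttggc
The match begins 86 bases before the start in Alas2, 163 in Trim10 and 33 in Isg20. A match is a description of these letters and not a site shown to be bound.

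The other 30 lower genes lay outside that list, and in each time all of them had every poor library below every rich one. Over all genes tested 1.52% lay below in this way, and these 30 were picked by the same comparison. Many are also known in red cells or their precursors, so they are not independent of the rule and their p-values are a description. Gda, guanine deaminase, stood at 64.03, 104, 142 and 37.9 RPM in 6h replicate 4, Day1 replicates 2 and 4 and Day7 replicate 1. In rich libraries it was 425 at the lowest, 1099 at the median and 2864 at the highest. No poor library reached the lowest rich one, and the log2 difference was -3.75 (SE 0.63, limma adjusted p = 0.00984). Cd24a, a small surface glycoprotein of immature red cells and B cells, stood at 112, 144, 199 and 65.5 against 585, 1188 and 5805. Here too the classes did not overlap, and the difference was -3.38 (SE 0.63, limma adjusted p = 0.0147). Lmo2, a bridging protein of the GATA1 complex, stood at 12.8, 13.2, 42.0 and 12.5 against 66.3, 269 and 499.5. Its difference was -3.53 (limma adjusted p = 0.0221), and Day1 replicate 4 was its highest poor library.

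Apol11b, a member of the apolipoprotein L family, had the largest negative difference outside the red cell list. It stood at 10.3, 25.6, 138 and 21.5 in the poor libraries and at 179, 808 and 6520 (lowest, median, highest) in the rich ones. The difference was -4.75 (SE 0.88, limma adjusted p = 0.0147), with Day1 replicate 4 close to the lowest rich library, Day7 replicate 2. Paqr9, a membrane receptor of the progestin and adipoQ family, stood at 5.03, 16.3, 7.34 and 5.89 against 14.3, 190 and 533. Txnrd2, the mitochondrial thioredoxin reductase, stood at 43.0, 17.3, 0 and 13.7 against 73.8, 199 and 545. Their differences were -4.22 and -3.94 (limma adjusted p = 0.0275 and 0.0283). Paqr9 overlapped across times, 16.3 in Day1 replicate 2 being above 14.3 in 6h replicate 1. Fam55b (-3.64, limma adjusted p = 0.0275) and F930017D23Rik (-3.41, limma adjusted p = 0.0178) completed the 8 largest.

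Several lower genes serve haem or iron, and these were chosen after their values were seen. Slc48a1, a haem transporter, stood at 584, 410, 506 and 262 in the poor libraries against 1315, 3075 and 6053 in the rich ones. Glrx5, needed to build iron-sulphur clusters, stood at 426, 261, 263 and 205 against 795, 2280 and 5585. Both lay wholly below, with differences of -2.63 and -2.91 (limma adjusted p = 0.0157 and 0.0169). These too may not be independent of the rule, and their p-values are a description. The theta globins Hbq1a and Hbq1b, near copies whose symbols fall outside the rule, differed by -2.76 and -3.15 and are tied to the rule.

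The summed levels of the proliferation and the interferon-stimulated lists were lower in all 4 poor libraries than in any rich one, while few single members passed. The sum of the 26 proliferation genes was 282, 255, 376 and 127 RPM in 6h replicate 4, Day1 replicates 2 and 4 and Day7 replicate 1. In rich libraries the sum was 856 at the lowest, 1812 at the median and 4025 at the highest, without overlap. Of 22 tested members 1 passed (Ube2c), all 22 had a negative difference, and the median was -1.84. Ube2c, which hands ubiquitin to the anaphase-promoting complex, stood at 163, 99.6, 226 and 46.8 against 588, 1170 and 2956. Its difference was -3.33 (SE 0.63, limma adjusted p = 0.0151), with the highest rich value in Day7 replicate 3. Ube2c alone was a large part of the list sum, 2956 of 4025 RPM in rich Day7 replicate 3. In the poor libraries it was 163 of 282, 99.6 of 255, 226 of 376 and 46.8 of 127. The gap in the sums is therefore not separate from this called gene, and a sum without it was not taken. Pttg1, the cell cycle protein securin, was chosen after its values were seen and differed by -2.82 (limma adjusted p = 0.0178). Other cycle genes had differences that did not pass, among them Mki67 (-2.80, limma adjusted p = 0.370), Top2a (-2.66, 0.362) and Birc5 (-3.03, 0.273). Scaled to all reads, 3 of the 22 differences were positive and the median was -0.99, beside 1.06 over all genes. Dividing cells and red cell precursors share these genes. The erythroid list moved with them, and its part in the difference was not tested.

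The 22 interferon-stimulated genes summed to 878, 1621, 1883 and 897 RPM in the poor libraries and to 3028, 5561 and 21817 (lowest, median, highest) in the rich ones. The sums did not overlap, yet 9 of the 22 differences were positive and the median was -0.27. The gap in the sums went with a few abundant members. Rsad2, the antiviral protein viperin, stood at 373, 406, 720 and 232 against 1428, 3868 and 18715. The log2 difference was -3.18 (SE 0.64, limma adjusted p = 0.0178), and 18715 was the level of Day7 replicate 3 alone. Isg15, a ubiquitin-like modifier, stood at 101, 159, 63.8 and 67.6 against 333, 693 and 1796, a difference of -2.92 (limma adjusted p = 0.0253). Irf7, the factor that drives type I interferon genes, was below every rich library of its time in each time but did not pass (-2.41, limma adjusted p = 0.0932). Ifit1 (-0.96), Ifit3 (1.59) and Bst2 (0.30) did not pass either (limma adjusted p = 0.712, 0.684 and 0.938). Scaled to all reads the list median was 0.63, beside 1.06 over all genes. Without Day1 replicate 4, or without the 2 libraries with the fewest genes, it was 0.01. Rsad2, Isg15, Ube2c, Mki67, Top2a, Birc5, Irf7, Ifit1, Ifit3 and Bst2 were chosen after their values were seen.

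**Figure D3:**
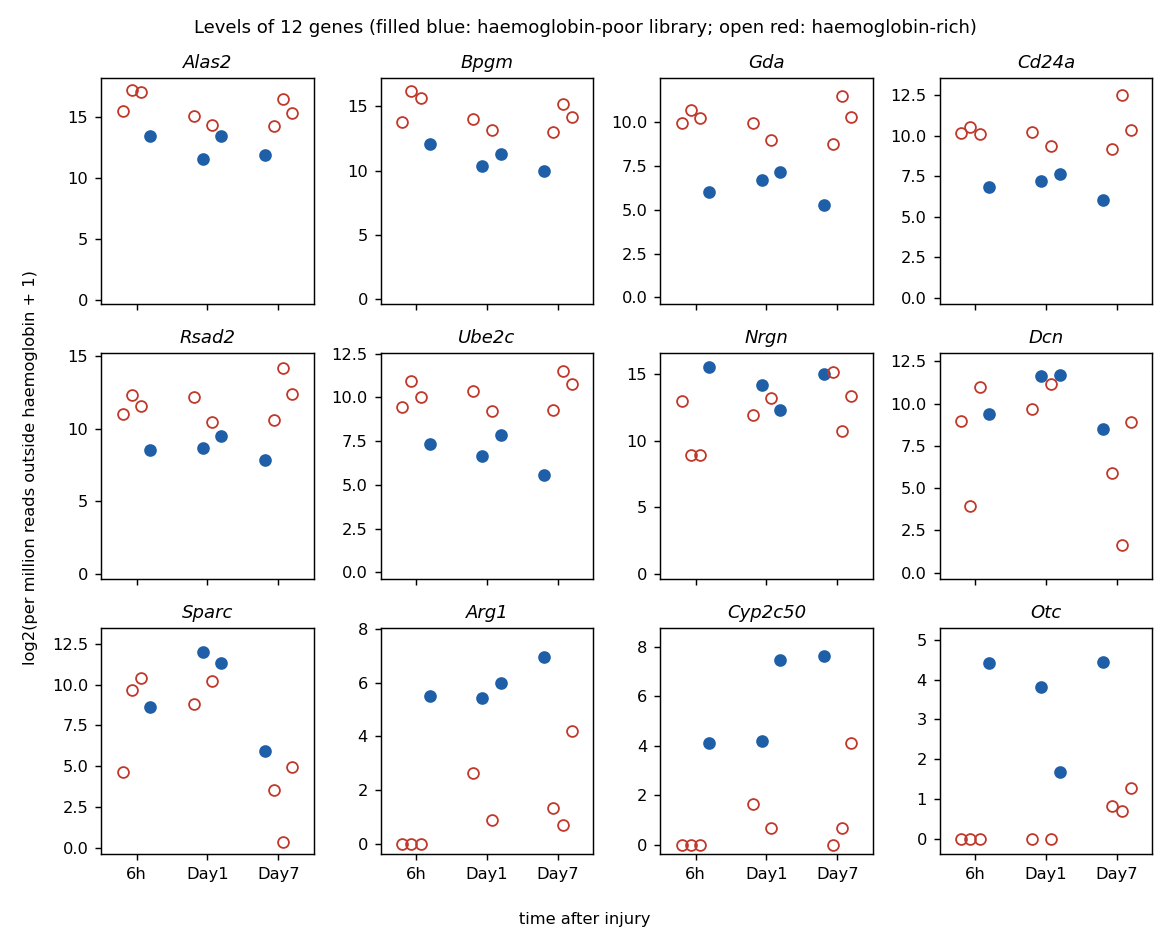
Levels of 12 genes (vertical axes, log2 of RPM + 1) at 6h, Day1 and Day7, with 1 point per library, filled blue for poor and open red for rich. Poor libraries lie below every rich library of their time for Alas2, Bpgm, Gda, Cd24a, Rsad2 and Ube2c and above for Arg1, Cyp2c50 and Otc, and the classes overlap for Nrgn, Dcn and Sparc.

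The 6 genes that were higher in the poor libraries belong to liver metabolism or are prominent there, and all were at or near 0 in most rich libraries. Arg1, arginase of the urea cycle, also made by some macrophages, stood at 44.8, 42.2, 62.4 and 124 in 6h replicate 4, Day1 replicates 2 and 4 and Day7 replicate 1. In rich libraries it was 0 at the lowest, 0.735 at the median and 17.5 at the highest, and the classes did not overlap. The difference was 4.69 (SE 0.90, limma adjusted p = 0.0159). Otc, the urea cycle enzyme ornithine transcarbamylase, stood at 20.5, 13.1, 2.20 and 20.7 against 0, 0 and 1.40. Its difference was 3.48 (limma adjusted p = 0.0178), and Day1 replicate 4 was only just above the highest rich library. Cyp2c50, a cytochrome P450, stood at 16.3, 17.0, 175 and 196 against 0, 0.288 and 16.1 (difference 4.91, SE 0.97, limma adjusted p = 0.0178). Its lowest poor value was nearly level with its highest rich one, Day7 replicate 4. Bhmt, which remethylates homocysteine, stood at 15.8, 18.3, 38.0 and 40.7 against 0, 0.265 and 6.92 (difference 3.71, limma adjusted p = 0.0460). Aspdh, an aspartate dehydrogenase domain protein, stood at 1.53, 10.9, 34.6 and 17.2 against 0, 0 and 2.10 (difference 3.24, limma adjusted p = 0.0376).

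Pank1, a pantothenate kinase of coenzyme A synthesis, stood at 8.10, 18.3, 50.6 and 9.24 against 0, 0 and 0.504 (difference 3.85, SE 0.69, limma adjusted p = 0.0147). None of the 6 genes reached 1 RPM in 4 rich libraries, so each passed the filter on low values through the poor ones, Pank1 with 0 rich libraries at that level. They had to differ, and their p-values are a description. With no filter limma called 0 genes (1378 at an unadjusted p under 0.05), and the adjusted p of Pank1 was 0.206. Pank1 had 671 reads in the poor libraries and 2 in the rich ones, a ratio per read outside haemoglobin of 205 with an exact 95% interval of 56.6 to 1698. Otc had 504 and 9 reads, a ratio of 34.2 (17.9 to 75.3). Arg1 had 2308 and 71, a ratio of 19.9 (15.7 to 25.6). These intervals cover counting error only. The 3-read floor of a rich library, 0.769 to 1.88 RPM, lay below the poor levels of all 6 genes except Aspdh in 6h replicate 4. A level such as that of Otc in Day1 replicate 4 (2.20) lies close to it.

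Hepatocyte genes as a whole had positive differences, yet most did not pass. The list of 30 hepatocyte genes outside the acute phase summed to 750, 13347, 28858 and 57466 RPM in the poor libraries. In rich libraries the sum was 18.7 at the lowest, 745 at the median and 12989 at the highest. The sums overlapped across times. They were 18.7 to 1102 in all 4 libraries at 6h and 301 and 388 in rich Day7 replicates 2 and 3, but 8725 and 12989 in the rich Day1 libraries and 12428 in rich Day7 replicate 4. All 30 differences were positive with a median of 2.69, beside 64.03% positive and a median of 0.35 over all genes. In each time 6 genes lay above every rich library of their time, beside 2.14% of all genes tested. Arg1 was the 1 that passed, beside 0.0476% of all genes called higher. The 26 acute phase genes summed to 924, 21780, 18318 and 41103 in poor libraries against 197, 369 and 14750 in rich ones. Of 25 tested, 25 had a positive difference (median 2.36) and limma called 0 of them (11 had an unadjusted p under 0.05). Ahsg, fetuin, a plasma inhibitor of mineral deposition, stood at 112, 1202, 2913 and 4513 against 0, 41.1 and 967.5. It lay above the rich libraries of its time in each time but did not pass (3.32, limma adjusted p = 0.272). Fgb, a fibrinogen chain (3.54), and Hp, haptoglobin, which binds free haemoglobin (2.699), did not pass either (limma adjusted p = 0.289 and 0.322). Without Day7 replicate 1 the acute phase median was 0.56, with 19 of 25 positive, and that of the other hepatocyte genes was 1.70. Within Day1 alone these medians were 0.33 and 0.88, beside 0.11 over all genes.

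Platelet genes had positive differences in the main fit, and their median was smaller without 6h replicate 4. The 28 platelet and megakaryocyte genes summed to 157442, 67797, 22554 and 118221 RPM in 6h replicate 4, Day1 replicates 2 and 4 and Day7 replicate 1. In rich libraries the sum was 1723 at the lowest, 27906 at the median and 156404 at the highest. The classes overlapped, because rich Day7 replicate 2 was nearly level with the highest poor library. All 28 differences were positive with a median of 1.91, but limma called 0 of them (15 had an unadjusted p under 0.05). Among all genes 64.03% were positive (median 0.35), and 1051 of 12598 had an unadjusted p under 0.05. Nrgn, neurogranin, abundant in platelets, stood at 47312, 18581, 5188 and 32475 against 485, 6067 and 36455 (2.41, limma adjusted p = 0.379). Pf4, platelet factor 4, stood at 13153, 9365, 2725 and 10563 against 105, 2277 and 17674 (2.26, limma adjusted p = 0.370). Ctla2a differed by 2.48 (limma adjusted p = 0.273). Without 6h replicate 4 the list median was 0.50, with 24 of 28 positive, beside a median of 0.39 over all genes. Within Day1 alone the list median was 0.19, with 16 of 27 positive, beside 0.11 over all genes.

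Genes of mesenchymal cells, the other kind of cell named in the labels, did not separate by class. The 26 mesenchymal progenitor and fibroblast genes summed to 1273, 6475, 5748 and 803 RPM in the poor libraries. In rich libraries the sum was 30.3 at the lowest, 1088 at the median and 3962 at the highest, so the classes overlapped. Of 22 tested, 19 differences were positive (median 0.81), and limma called 0 of them, 0 having an unadjusted p under 0.05. Among all genes 64.03% were positive, with a median of 0.35. Dcn, the proteoglycan decorin, stood at 678, 3144, 3262 and 365 against 2.12, 491 and 2327 (1.83, limma adjusted p = 0.673). Cd34, a surface protein of progenitors and endothelium, stood at 168, 494.5, 504.5 and 41.0 against 0, 40.1 and 368 (1.96, limma adjusted p = 0.646). Vim, vimentin, differed by 1.20 (limma adjusted p = 0.728). Both Day1 poor libraries were above every rich library for these 3 genes, while Day7 replicate 1 was not.

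The 27 collagen and matrix genes summed to 2054, 12356, 15190 and 353 RPM in poor libraries and to 18.8, 990 and 6626 in rich ones. All 22 tested had a positive difference (median 1.41), 3 at an unadjusted p under 0.05 and 0 past the threshold in limma. Among all genes 64.03% were positive (median 0.35), and 1051 of 12598 had an unadjusted p under 0.05. Sparc, the matrix protein osteonectin, stood at 401, 4112, 2556 and 59.1 against 0.303, 241 and 1364 (1.87, limma adjusted p = 0.618). Fbln1, fibulin 1 (1.51), and Col3a1, a fibrillar collagen (1.56), did not pass (limma adjusted p = 0.667 and 0.742). With Y-linked reads as a term the list median was 0.34, with 16 of 22 positive, close to the median of 0.28 over all genes in that fit.

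Cartilage and bone genes, which the series title links to heterotopic ossification, were unevenly detected, and few could be tested. Of 13 cartilage genes 4 could be tested, and of 13 bone genes 4. Sox9, the factor of early cartilage, stood at 0, 9.57, 61.0 and 0 in the poor libraries against 0, 1.26 and 29.7 in the rich ones. It was seen in all 4 Day1 libraries (13.8 and 29.7 in the rich ones), in 2 rich 6h libraries (2.52 and 13.2) and in 0 of 4 Day7 libraries (difference -0.46, limma adjusted p = 0.916). Without 6h replicate 4 that difference was 0.15, and within Day1 alone it was 0.27. Runx2, the factor of bone-forming cells, stood at 0.328, 12.4, 106 and 5.20 against 0, 12.8 and 274 (-1.34, limma adjusted p = 0.732). Spp1, osteopontin, stood at 60.6, 14.7, 2558 and 2.08 against 0, 14.2 and 3288 (1.80, limma adjusted p = 0.803). Its 2 high values came from 1 poor library, Day1 replicate 4, and 1 rich one, 6h replicate 2. Prg4, lubricin of joint surfaces, also made elsewhere, stood at 62.1, 68.7, 127 and 85.1 against 0.303, 20.7 and 67.4 and did not pass (2.07, limma adjusted p = 0.523). Sox6 (-0.37) and Atf4 (0.68) did not pass (limma adjusted p = 0.946 and 0.803).

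White cell lists overlapped between the classes. Of 18 neutrophil genes 16 had a positive difference (median 1.04), of 20 monocyte and macrophage genes 13 (0.73), of 16 B cell genes 14 (1.15) and of 19 T cell genes 8 (-0.08). None of these members passed in limma, and 1, 4, 0 and 0 had an unadjusted p under 0.05. Among all genes 64.03% were positive (median 0.35), and 1051 of 12598 had an unadjusted p under 0.05. The highest T cell, B cell and monocyte sums were all in rich 6h replicate 1 (5835, 9385 and 9670 RPM), a library with few genes. The calgranulins S100a8 (0.42) and S100a9 (-0.47), made by neutrophils, and Mxd1 (-0.67) did not pass (limma adjusted p = 0.952, 0.937 and 0.799). S100a8 reached 491 in Day7 replicate 1 and was 0 in Day1 replicate 4, so the poor libraries themselves spanned the whole range of the rich ones.

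**Figure D4:**
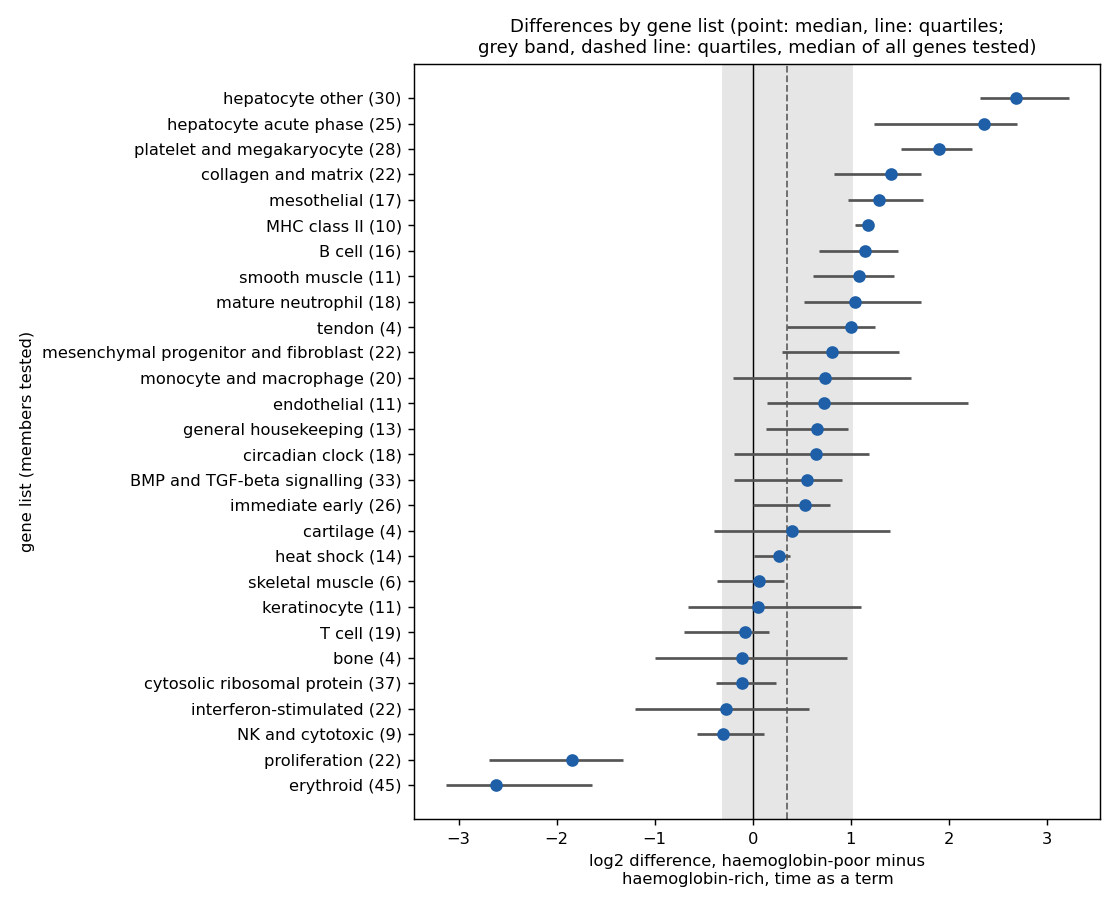
Median log2 difference of poor minus rich libraries (horizontal axis, time as a term) for each gene list, with quartiles as lines and the number of tested members in brackets. Medians lie furthest right for the hepatocyte and platelet lists (2.69, 2.36 and 1.91) and furthest left for the proliferation and erythroid lists (-1.84 and -2.62). Other lists also have medians right of the grey band of all genes, among them collagen and matrix (1.41), mesothelial (1.29) and MHC class II (1.18).

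**Figure D5:**
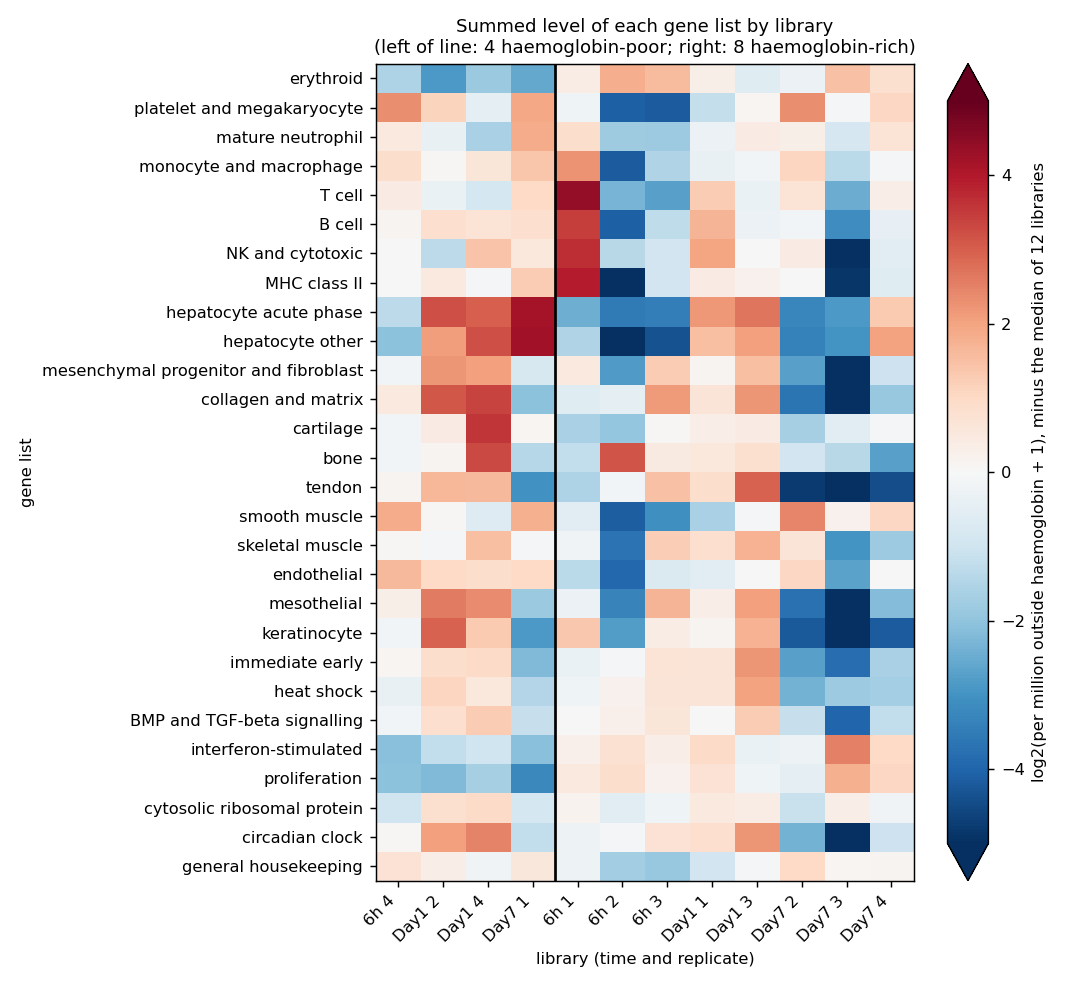
Summed level of each list (rows) in each library (columns), as log2(RPM + 1) minus the median of the 12 libraries, with colours ending at the limits of the scale. The erythroid, interferon-stimulated and proliferation rows are low in all 4 poor libraries left of the line, while hepatocyte, platelet and matrix rows vary within both classes.

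Whether poor minus rich differed between the times was not settled by these libraries. The moderated F test of the interaction in limma called 0 of 12598 genes, with 535 at an unadjusted p under 0.05. edgeR called 0 (481 unadjusted) and DESeq2 0 (767 unadjusted). limma called 511 genes with no filter and 1 with the replicate block. With 1 poor library at 6h and 1 at Day7, this comparison rests on single libraries.

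The class changed how many genes differed among the 3 times. With the class as a term 1780 of 12598 genes passed the moderated F test of time in limma (14.1%), and without it 2425 (19.2%). Of these, 1701 genes passed in both, 79 only with the class and 724 only without it. Adipor1, an adiponectin receptor chosen after its values were seen, was the 1 gene called in both the class comparison and the time comparison. The count with the class as a term was 32 with a further term for Y-linked reads and 35 in edgeR. It ran from 166 to 3048 when libraries were left out singly. No Day7 library held Y-linked reads, so the term for them is partly mixed with time.

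The scale decided what a poor library seemed to gain. Scaled to all reads, haemoglobin included, 503 genes were higher in poor libraries (4.41% of 11409) and 24 lower (0.21%), and the median of all genes was 1.06. Scaled to reads outside both haemoglobin and the erythroid list, that median was 0.12, and 76 genes passed. Values as deposited gave a median of 0.30 and 0 calls. Differences here are therefore read against the median of their own scale.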

How the data were processed

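Total RNA of iChip-enriched mouse blood was read in 12 libraries. The deposited table gives a signal per gene, for 37583 genes, in columns the authors call CPM whose sums differ between libraries. STAR 2.7.10, HTSeq 2.0.1 and build mm9 are named in the submitters' processing notes, and the scaling step is not given in the sources used here. Each deposited signal was a whole number of reads times 1 factor per library (100% of values within 0.01 reads of a whole read), so reads were recovered. The 11 Hba- and Hbb- rows were left out and values rescaled to 1000000 reads outside haemoglobin (RPM here). Read totals ran from 5098395 to 12379041 per library, which sets the precision of low genes.

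Genes were tested with limma 3.58.1 (R 4.3.3, trended prior variance, log2 of value + 1), taking genes at 1 RPM or more in at least 4 libraries, 12598 in all, with time and class as terms and Benjamini-Hochberg adjustment at 0.05. The log2(value + 1) scale understates differences of low genes. Genes detected were compared at a common depth by an exact permutation test within times. Genes of the erythroid list were in the fit and its counts but share the cells of haemoglobin, so they are described without p-values. Red cell genes outside that list are given with p-values, as a description.

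Named genes were the 8 largest differences in each direction among called genes outside the erythroid list whose classes did not overlap within any time and whose mean was at least 10 RPM in the higher class. Added were the 3 largest called members of each list with 3 or more calls, and the 3 most abundant members of 8 lists. The members and lists were chosen with earlier results of these data known. Alternatives covered pseudocounts of 0.25 and 4, filters, scalings, array weights, a replicate block, each library left out, and count models on recovered reads, DESeq2 1.42.0 and the quasi-likelihood test of edgeR 4.0.16. Chosen after seeing the data were the removal of the libraries with the fewest genes and Day1 alone. Fits were tested on simulated data. Promoters came from RefSeq on GRCm38.p6, another build than mm9, and no position in the files was used. Replicate numbers did not pair libraries. All columns were used.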

Additional observations from a re-analysis of the deposited data

Results flagged for a closer look

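These are libraries that lay far from the other 3 of their time by Dixon's test at 95%, taken on the log2 scale for gene and list levels. Chance flags about 1 in 20 such groups, and 15 of 216 groups were flagged. That rate does not apply to genes named because they differed between the classes, where a single poor library at 6h or Day7 had to stand apart more often. At 6h the single poor library, replicate 4, stood apart in many values, as 1 of 4 libraries can. It had 12379041 reads (others 5098395 to 6081233). Its levels in RPM outside haemoglobin were 44.8 for Arg1, 20.5 for Otc, 1.53 for Aspdh, 16.3 for Cyp2c50 and 15.8 for Bhmt, each at 0 in the other 3. They were 12.8 for Lmo2 (others 243 to 363), 112 for Cd24a (others 1113 to 1500) and 64.03 for Gda (others 981 to 1627). At Day7 the single poor library, replicate 1, was high for Otc (20.7, others 0.606 to 1.40) and Pank1 (9.24, others 0 to 0.351).

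The remaining values concern single libraries of either class. Poor Day1 replicate 4 had a cartilage sum of 1073 RPM (others 113 to 120). Rich Day7 replicate 3 was low for the BMP and TGF-beta signalling sum (92.1, others 617 to 653) and for Cd34 (2.42, others 37.1 to 43.1). Rich Day7 replicate 2 was high for Mxd1, a repressor of Myc targets (212, others 123 to 133).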

How the results depend on the processing

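The 54 genes of the poor and rich comparison became 0 with no filter, on values as deposited, with the replicate block (529 at an unadjusted p under 0.05), in edgeR, with Y-linked reads as a term and within Day1 alone (766 at an unadjusted p under 0.05). They became 527 scaled to all reads, 140 with array weights (30 higher, 110 lower) and 187 in DESeq2, and ran from 0 to 68 with libraries left out singly. The cause was not tested. The interaction called 511 genes with no filter and 1 with the replicate block, and 0 whenever a library was left out. The 1780 genes of the time comparison became 841 with a pseudocount of 0.25, 104 with no filter, 558 on values as deposited, 2887 scaled to all reads, 278 with TMM and 349 with median-of-ratios scaling. They became 1096 scaled outside haemoglobin and the erythroid list, 4734 with array weights, 925 with the replicate block, 35 in edgeR, 755 in DESeq2 and 32 with Y-linked reads as a term, and ran from 166 to 3048 with libraries left out singly. The replicate numbers did not pair libraries: deviations of libraries with the same number correlated at -0.187 to 0.125, and 2 of 12 correlated best with their own number. The difference in genes detected at a common depth ran from -136 to 1384 with libraries left out singly and was -7.04 without the 2 libraries with the fewest genes. Scaled to all reads, 7 named genes passed that had not passed in the main fit, and 2 that had passed did not. The 7 were Ahsg, Fgb, Hp, Nrgn, Pf4, Ctla2a and Prg4, and the median over all genes on that scale was 1.06. Of the named genes, directions turned only for genes that never passed. The Sox9 difference was 0.10 scaled to all reads, 0.53 without the time term, 0.27 within Day1 and ran from -0.96 to 0.15 with libraries left out singly. Mxd1 was 0.37 and Sox6 0.46 scaled to all reads, Sox6 was 2.23 within Day1 and ran from -1.16 to 1.02 with libraries left out singly, and Atf4 was -0.027 within Day1. S100a8 was -0.064 in DESeq2 and ran from -0.94 to 1.75 with libraries left out singly. S100a9 was 0.62 scaled to all reads, 0.0075 with array weights, 0.046 in edgeR, 0.37 with Y-linked reads as a term, 0.000811 with the haemoglobin share as a continuous term (log2 per percent), and ran from -1.89 to 0.88 with libraries left out singly. Of the genes tested, 517 to 5645 had 0 reads in rich libraries and 107 to 2471 in poor ones. Rich 6h replicate 1 and rich Day1 replicate 1, with 1817373 and 1886331 reads outside haemoglobin, had 5645 and 517. The part of depth in these counts was not tested.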

Other observations

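Circadian clock genes summed to 1190 and 1643 RPM in the poor and to 517 and 1340 in the rich Day1 libraries, and to 122 in poor Day7 replicate 1 against 3.64 to 141 in rich Day7 libraries. Mesothelial genes, made by the lining of body cavities, summed to 25799 and 22020 in the poor Day1 libraries and to 5313 and 17365 in the rich ones. At Day7 they summed to 1171 in the poor library and to 318, 22.1 and 947 in rich replicates 2, 3 and 4. Cytosolic ribosomal protein genes had a median difference of -0.11 over 37 tested members, with 15 positive and none called in limma (0 at an unadjusted p under 0.05).

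Outside haemoglobin, Alas2 or Malat1, a long nuclear RNA, led the reads of most rich libraries. Tmsb4x, thymosin beta 4, an actin-binding peptide abundant in platelets, led poor 6h replicate 4 (137914 RPM), Day1 replicate 2 and Day7 replicate 1. It also led rich Day7 replicate 2 (133751 RPM) and rich Day7 replicate 4 (60837 RPM). It differed by 2.32 between the classes and did not pass (limma adjusted p = 0.282). Day7 replicate 3, a rich library, had the highest interferon-stimulated sum (21817 RPM) and the highest proliferation sum (4025 RPM).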
